A study of Mus musculus with 12 samples.

Results

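The lysosome degrades proteins, sugars and lipids at acid pH, and in B cells it also cuts the antigen that the B cell receptor brings in. The genes described are 40 listed components of this organelle, from soluble hydrolases to membrane proteins, the transcription factors Tfeb and Tfe3 and subunits of the vacuolar proton pump. Each gene was read from the probe set with the highest mean over the 12 arrays among those annotated to 1 gene symbol. On that rule 38 of the 40 genes were measured, out of 18193 genes in all, and the expression of Cd63 and Atp6v0c is not analysed here.

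Splenic follicular B cells, gated as B220+CD23hiCD21lo, came from C57Bl/6 mice aged 6 weeks and were put in culture. The 6 groups were IkL/L cells left unstimulated for 3 h, IkL/L cells given 10 µg/ml goat F(ab')2 anti-IgM for 3 h, IkL/L cells given it for 12 h, and WT cells under the same 3 conditions. IkL/L is the mouse line that the series title calls Ikaros-deficient, and the labels do not say how many mice were pooled for an array. Each group had 2 arrays, labelled replicate 1 and 2, from 2 independent experiments. The unstimulated cells had been in culture for 3 h, so the 12 h groups differ from them in culture time as well as in anti-IgM, and the 2 cannot be told apart.

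Lysosomal hydrolases are made in the endoplasmic reticulum, tagged with mannose-6-phosphate and carried to the lysosome, where the V-ATPase, a pump with a membrane V0 sector and a cytosolic V1 sector, keeps the lumen acid. Many of these genes are targets of TFEB and TFE3, basic helix-loop-helix factors that bind E-boxes in promoters when they move to the nucleus. In B cells, cathepsin S trims the invariant chain that guards the peptide groove of MHC class II, and receptor cross-linking with anti-IgM drives the resting cell toward growth.

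The values are log2 signals of 3′ expression arrays. Array medians lay between 3.12 and 3.21, and 57.1% of genes had a mean below 4.21, a floor set 1 log2 unit above the highest array median. A group with an array under that floor gives only a bound, written "at least". The 2 arrays of a group correlated at 0.990 to 0.994 across genes, which are not independent replicates. Ikzf1, the gene of Ikaros, read 10.0 and 9.94 in unstimulated IkL/L cells, against 9.85 and 9.83 in unstimulated WT cells, and the sources used here do not say where its probes lie relative to the altered allele, so this level checks nothing about the label. Xist was at 10.0 to 10.7 on the 3 WT replicate 1 arrays and at most 3.48 on the other 9, which also carried Y-linked Eif2s3y at 8.30 or more. Gla, Lamp2, Atp6ap1 and Tfe3 are X-linked, and a part of this difference in their values was not tested.

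All 7 measured B cell markers were over the floor on at least 1 array, with a summed signal of 11.8 to 12.7 (log2 of the sum) on the stimulated arrays and 13.3 to 13.8 on the unstimulated ones, while all 7 measured T cell markers and all 4 NK cell markers lay under the floor throughout. Of 9 macrophage and monocyte markers, 6 lay under the floor on every array, among them Csf1r, Itgam and Cd14. The summed signal of the 9, mostly Mpeg1, was 7.89 to 9.23 (log2 of the sum) in IkL/L arrays and 6.89 to 8.66 in WT arrays. The sum of 6 neutrophil markers was 6.61 to 9.01 in IkL/L arrays and 5.85 to 8.62 in WT arrays, and was higher in replicate 2 than in replicate 1 in all 6 groups. Replicate 2 was also the higher one in all 6 groups for 10 of the 38 lysosomal genes (Ctsh, Gaa, Psap, Npc1, Mcoln1, Tfe3, Atp6v0b, Atp6v0d1, Atp6v1d and Atp6v1e1) and for 1294 of the 18193 genes. The part of these cells in the results was not tested. In RNA from a whole culture, fewer cells of a type and less RNA per cell cannot be told apart.

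After 3 h of anti-IgM, lysosomal genes were called in both directions. Differences were tested with limma in 1 model of all 12 arrays, and p-values were adjusted over all 18193 genes by the Benjamini-Hochberg method, with a call at an adjusted p under 0.05. At 3 h, 5 of 38 members were higher and 8 lower in stimulated IkL/L cells, where 9.82% of all genes were called higher and 10.6% lower. In WT cells 7 were higher and 8 lower at 3 h, where the percentages over all genes were 9.15 and 10.2. Calls are more frequent among genes with a higher signal, and among the 7805 genes with a mean over the floor the shares at 3 h were 21.3% higher and 21.0% lower in IkL/L cells and 20.4% and 20.6% in WT cells. The member shares of 13.2% higher and 21.1% lower in IkL/L cells, and 18.4% and 21.1% in WT cells, are near or below those.

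At 12 h more members were called higher than lower as deposited, but in WT cells not under housekeeping scaling or without replicate 2. In IkL/L cells 14 of 38 were higher and 2 lower than in unstimulated cells, that is 36.8% and 5.26%, against 9.72% and 7.87% of all genes and 20.4% and 16.1% of the genes over the floor. In WT cells 9 were higher and 4 lower, that is 23.7% and 10.5%, against 10.1% and 8.66% of all genes and 21.9% and 17.6% of those over the floor. Scaled on housekeeping genes, the 12 h counts were 5 higher and 3 lower in IkL/L cells and 4 higher and 4 lower in WT cells. That scaling also moved the calls over all 18193 genes, to 704 higher and 1628 lower in IkL/L cells. In WT cells they were 899 higher and 1585 lower. Without replicate 2 of every WT condition, 2 were higher and 3 lower in WT cells. That fit, also used below for 12 h against 3 h, had 1 array in each WT group, and its calls over all genes are not given here. Its lower counts therefore do not set the members apart from other genes. The WT count at 12 h was 23, with 18 higher and 5 lower, when the replicate number was added as a block within each genotype. With that block 2445 of all genes were called higher and 2053 lower. Between 3 h and 12 h, 13 members were higher and 2 lower at 12 h in IkL/L cells, where 9.12% and 6.42% of all genes were called. By sign alone, 33 of the 38 had a difference above 0 and 5 below 0, where 41.9% of all genes lay below 0. In WT cells the counts for 12 h against 3 h were 8 higher and 1 lower, where 6.5% and 4.33% of all genes were called. There 23 of the 38 lay above 0 and 15 below 0, where 46.5% of all genes lay below 0. Housekeeping scaling brought the counts for 12 h against 3 h to 6 higher and 2 lower in IkL/L cells and 1 higher and 1 lower in WT cells, and without replicate 2 of every WT condition 0 were higher and 1 lower in WT cells. For 12 h against 3 h under housekeeping scaling, 616 of all genes were called higher and 1637 lower in IkL/L cells. In WT cells the numbers were 473 and 741. The median member difference at 12 h was 0.30 for IkL/L cells and 0.37 for WT cells, and for 12 h against 3 h it was 0.37 for IkL/L cells and 0.05 for WT cells. The medians over all genes were 0.02 and 0.05 at 12 h and 0.05 and 0.02 for 12 h against 3 h. Under housekeeping scaling the member medians were 0.065 and 0.217 at 12 h and 0.078 and -0.111 for 12 h against 3 h, in IkL/L and WT cells.

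**Figure D1:**
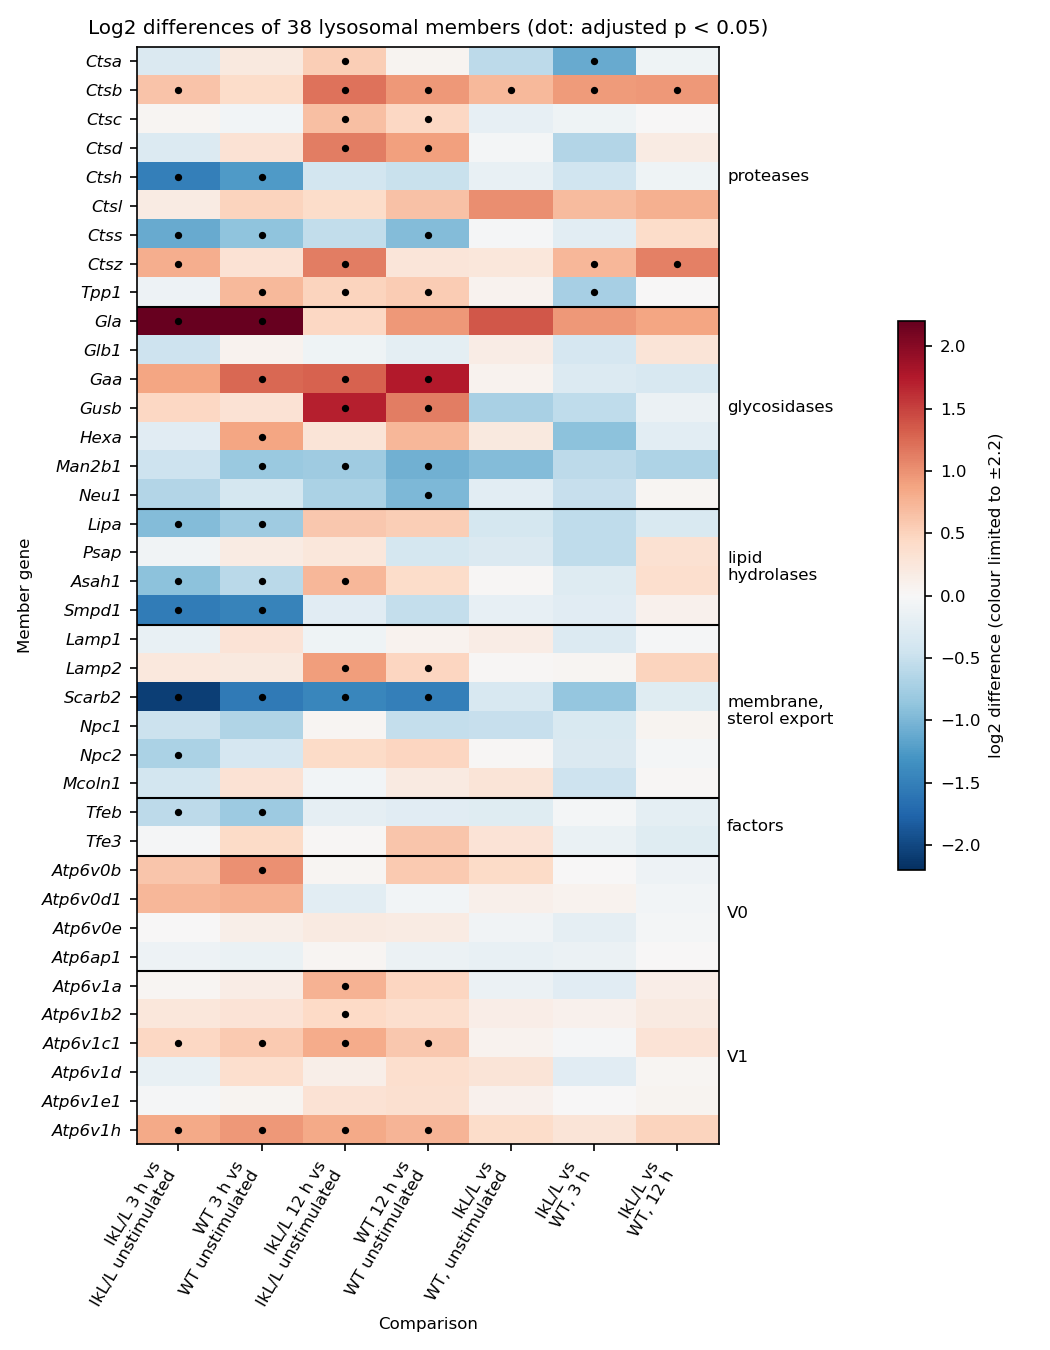
Log2 differences of the 38 measured members (rows, grouped by role) in 7 comparisons (columns), the group named first minus the other, with red for higher, blue for lower and a dot for adjusted p under 0.05. Scarb2 is blue and dotted in all 4 stimulation columns, while Gla is dark red at 3 h and pale at 12 h.

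Among the 9 proteases, Ctsh and Ctss were lower after 3 h of anti-IgM in both genotypes. Ctsh, cathepsin H, an aminopeptidase, read 10.05 and 10.32 in unstimulated IkL/L cells, 8.60 and 8.75 at 3 h and 9.74 and 9.81 at 12 h, against 10.21 and 10.50, 8.95 and 9.26, and 9.81 and 9.91 in WT cells. All 4 of the 3 h arrays lay below all 8 others. Ctsh fell by 1.51 on the log2 scale at 3 h in IkL/L cells (SE 0.15, 2.85-fold, limma adjusted p = 9.73e-05) and by 1.24 in WT cells (SE 0.15, 2.37-fold, limma adjusted p = 0.000293). It was higher at 12 h than at 3 h by 1.10 in IkL/L cells (limma adjusted p = 0.00107) and by 0.76 in WT cells (limma adjusted p = 0.0116). The WT rise was not called without WT 3 h replicate 1 (adjusted p = 0.0946) or WT 12 h replicate 2 (adjusted p = 0.0728).

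Ctss, cathepsin S, read 12.33 and 11.93 in unstimulated IkL/L cells, 11.14 and 10.90 at 3 h and 11.75 and 11.44 at 12 h, against 12.13 and 12.16, 11.15 and 11.36, and 11.56 and 10.83 in WT cells. Ctss fell by 1.11 at 3 h in IkL/L cells (SE 0.23, 2.15-fold, limma adjusted p = 0.00648) and by 0.89 in WT cells (SE 0.23, 1.85-fold, limma adjusted p = 0.0214). At 12 h it was lower by 0.95 in WT cells (limma adjusted p = 0.0157), whereas the IkL/L difference of -0.53 was not called (limma adjusted p = 0.17). These calls were thin. The IkL/L one was lost without unstimulated replicate 1 (adjusted p = 0.0579) or 3 h replicate 2 (adjusted p = 0.0583), and the WT 3 h one without any 1 of the 4 arrays compared (adjusted p between 0.0536 and 0.132). The WT 12 h call was lost without either unstimulated array (adjusted p = 0.0729 and 0.0832) or without 12 h replicate 2, which brought the difference to -0.58 (adjusted p = 0.109).

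Ctsb and Ctsd, the endopeptidases cathepsin B and cathepsin D, rose in both genotypes by 12 h. Ctsb read 8.13 and 8.21 in unstimulated IkL/L cells, 8.74 and 8.84 at 3 h and 9.39 and 9.33 at 12 h, against 7.31 and 7.59, 7.82 and 7.88, and 8.25 and 8.57 in WT cells. The 3 conditions did not overlap within either genotype, and every IkL/L array lay above its WT counterparts. Ctsb rose by 1.19 at 12 h in IkL/L cells (SE 0.14, 2.28-fold, limma adjusted p = 0.000302) and by 0.96 in WT cells (SE 0.14, 1.94-fold, limma adjusted p = 0.000865). The 3 h rise of 0.62 in IkL/L cells (limma adjusted p = 0.00899) was lost without unstimulated replicate 1 (adjusted p = 0.0548) or 3 h replicate 2 (adjusted p = 0.0665).

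Ctsd read 6.70 and 6.83 in unstimulated IkL/L cells, 6.37 and 6.56 at 3 h and 7.70 and 8.06 at 12 h, against 6.84 and 6.75, 6.97 and 7.26, and 7.52 and 7.86 in WT cells. It rose by 1.12 at 12 h in IkL/L cells (SE 0.17, 2.17-fold, limma adjusted p = 0.00136) and by 0.90 in WT cells (SE 0.17, 1.86-fold, limma adjusted p = 0.00416). Against 3 h, the IkL/L rise at 12 h was 1.42 (2.67-fold, limma adjusted p = 0.000449). Both genotypes were at their highest at 12 h, but the 3 h arrays lay below the unstimulated ones in IkL/L cells and above them in WT cells.

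Ctsz, cathepsin Z, a carboxypeptidase, rose with stimulation in IkL/L cells. It read 10.13 and 9.88 in unstimulated IkL/L cells, 10.91 and 10.69 at 3 h and 11.10 and 11.16 at 12 h, against 9.83 and 9.68, 10.00 and 10.14, and 10.18 and 9.88 in WT cells. In IkL/L cells it was higher by 0.80 at 3 h (SE 0.15, limma adjusted p = 0.00314) and by 1.13 at 12 h (SE 0.15, 2.18-fold, limma adjusted p = 0.000576). The WT differences of 0.32 and 0.27 were not called (limma adjusted p = 0.197 and 0.275), and the test of the difference between genotypes did not pass at either time.

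The other proteases moved less. Tpp1, the tripeptidyl peptidase lost in a childhood neuronal ceroid lipofuscinosis, rose by 0.70 at 3 h in WT cells (limma adjusted p = 0.0019) and had a difference of -0.11 in IkL/L cells (limma adjusted p = 0.656). Its rises at 12 h were 0.49 in IkL/L cells and 0.56 in WT cells (limma adjusted p = 0.017 and 0.00765), the IkL/L call being lost without unstimulated replicate 2 or either 12 h array (adjusted p between 0.0561 and 0.105) and the WT call without unstimulated replicate 1 (adjusted p = 0.063) or 12 h replicate 2 (adjusted p = 0.0623). Ctsc, which activates granule proteases, rose at 12 h by 0.66 in IkL/L cells (limma adjusted p = 0.00421) and by 0.46 in WT cells (limma adjusted p = 0.026), the WT call being lost without WT unstimulated replicate 2 (adjusted p = 0.191) or either 12 h array (adjusted p = 0.101 and 0.0842). Its second brightest probe set had a difference of -0.02 at 12 h in WT cells. Ctsl, cathepsin L, was called in no comparison. It read 5.42, 5.50 and 5.62 in IkL/L replicate 1 and 6.20, 6.48 and 6.81 in IkL/L replicate 2 over the 3 conditions, so the gap between the replicates exceeded any change with stimulation.

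Of the 7 glycosidases, Gla, Gaa and Gusb each rose by more than 1 log2 unit in both genotypes, at different times. Gla, alpha-galactosidase A, the enzyme lacking in Fabry disease, read 4.11 and 5.78 in unstimulated IkL/L cells, 7.35 and 7.91 at 3 h and 4.94 and 5.86 at 12 h, against 3.58 and 3.57, 7.04 and 6.32, and 4.35 and 4.72 in WT cells. All 4 of the 3 h arrays lay above all 8 others, and 3 unstimulated arrays lay under the floor. Gla rose at 3 h by 2.69 in IkL/L cells (SE 0.49, at least 6.23-fold, limma adjusted p = 0.00295) and by 3.10 in WT cells (SE 0.49, at least 5.54-fold, limma adjusted p = 0.00128). By 12 h it had fallen against 3 h by 2.24 in IkL/L cells (4.71-fold, limma adjusted p = 0.0117) and by 2.14 in WT cells (4.42-fold, limma adjusted p = 0.0193). The IkL/L fall was lost without IkL/L 3 h replicate 2 (adjusted p = 0.0919) or 12 h replicate 1 (adjusted p = 0.0921), and the WT fall without WT 3 h replicate 1 (adjusted p = 0.141) or either WT 12 h array (adjusted p = 0.0938 and 0.0629). The 2 further Gla probe sets averaged 2.89 and 2.49, under the floor, and their differences at 3 h in WT cells were 0.28 and 0.06.

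Gaa, acid alpha-glucosidase, which breaks down glycogen and is lacking in Pompe disease, rose more slowly. It read 5.51 and 6.23 in unstimulated IkL/L cells, 6.72 and 6.77 at 3 h and 6.93 and 7.42 at 12 h, against 5.69 and 5.89, 6.83 and 7.27, and 7.0 and 8.08 in WT cells. Stimulated arrays lay above unstimulated ones in both genotypes. Gaa rose at 12 h by 1.31 in IkL/L cells (SE 0.34, 2.47-fold, limma adjusted p = 0.0245) and by 1.75 in WT cells (SE 0.34, 3.36-fold, limma adjusted p = 0.00491). The IkL/L call was lost without IkL/L unstimulated replicate 1 (adjusted p = 0.167) or 12 h replicate 2 (adjusted p = 0.173). At 3 h the WT rise of 1.26 (limma adjusted p = 0.0264) was lost without any 1 of the 4 arrays compared (adjusted p between 0.0515 and 0.163). A further probe set of Gaa read over the floor gave differences at 12 h of 1.46 in IkL/L cells and 1.70 in WT cells.

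Gusb, beta-glucuronidase, rose mainly between 3 h and 12 h. It read 5.97 and 6.09 in unstimulated IkL/L cells, 6.58 and 6.39 at 3 h and 7.98 and 7.50 at 12 h, against 6.65 and 6.82, 6.96 and 7.14, and 7.93 and 7.79 in WT cells. The 12 h rise was 1.71 in IkL/L cells (SE 0.17, 3.27-fold, limma adjusted p = 0.000104) and 1.12 in WT cells (SE 0.17, 2.18-fold, limma adjusted p = 0.000942). The 12 h arrays of both genotypes overlapped, while unstimulated IkL/L arrays lay below unstimulated WT arrays, a difference not called by limma. The second brightest Gusb probe set gave 12 h differences of 0.79 and 0.48, neither called.

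Man2b1 and Neu1 were the glycosidases called lower than in unstimulated cells. Man2b1, lysosomal alpha-mannosidase, read 8.08 and 8.37 in unstimulated IkL/L cells, 7.79 and 7.77 at 3 h and 7.50 and 7.40 at 12 h, against 8.93 and 9.44, 8.15 and 8.58, and 7.91 and 8.34 in WT cells. It fell by 0.78 at 12 h in IkL/L cells (SE 0.21, 1.71-fold, limma adjusted p = 0.0299) and by 1.06 in WT cells (SE 0.21, 2.08-fold, limma adjusted p = 0.00577), and at 3 h by 0.82 in WT cells (limma adjusted p = 0.0211). The IkL/L call was lost without unstimulated replicate 2 (adjusted p = 0.168) or either 12 h array (adjusted p = 0.0835 and 0.151). The WT calls were lost without WT unstimulated replicate 2 (adjusted p = 0.19 at 3 h and 0.059 at 12 h), and at 3 h also without WT 3 h replicate 1 (adjusted p = 0.173).

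Neu1, the lysosomal sialidase, read 5.01 and 5.57 in unstimulated IkL/L cells, 4.53 and 4.75 at 3 h and 4.49 and 4.69 at 12 h, against 5.49 and 5.58, 5.43 and 4.85, and 4.19 and 4.89 in WT cells. It fell by 0.99 at 12 h in WT cells (at least 1.98-fold, limma adjusted p = 0.026). That call was lost without either WT unstimulated array (adjusted p = 0.0918 and 0.129) or without WT 12 h replicate 1, the array under the floor, which brought the difference to -0.64 (adjusted p = 0.179). Hexa, the alpha chain of hexosaminidase A, rose by 0.87 at 3 h in WT cells (limma adjusted p = 0.0256) and had a difference of -0.26 in IkL/L cells (limma adjusted p = 0.582). The WT call was lost without either WT unstimulated array (adjusted p = 0.148 and 0.0719) or WT 3 h replicate 2 (adjusted p = 0.192). Glb1, beta-galactosidase, stayed between 4.77 and 5.42 and was called in no comparison.

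**Figure D2:**
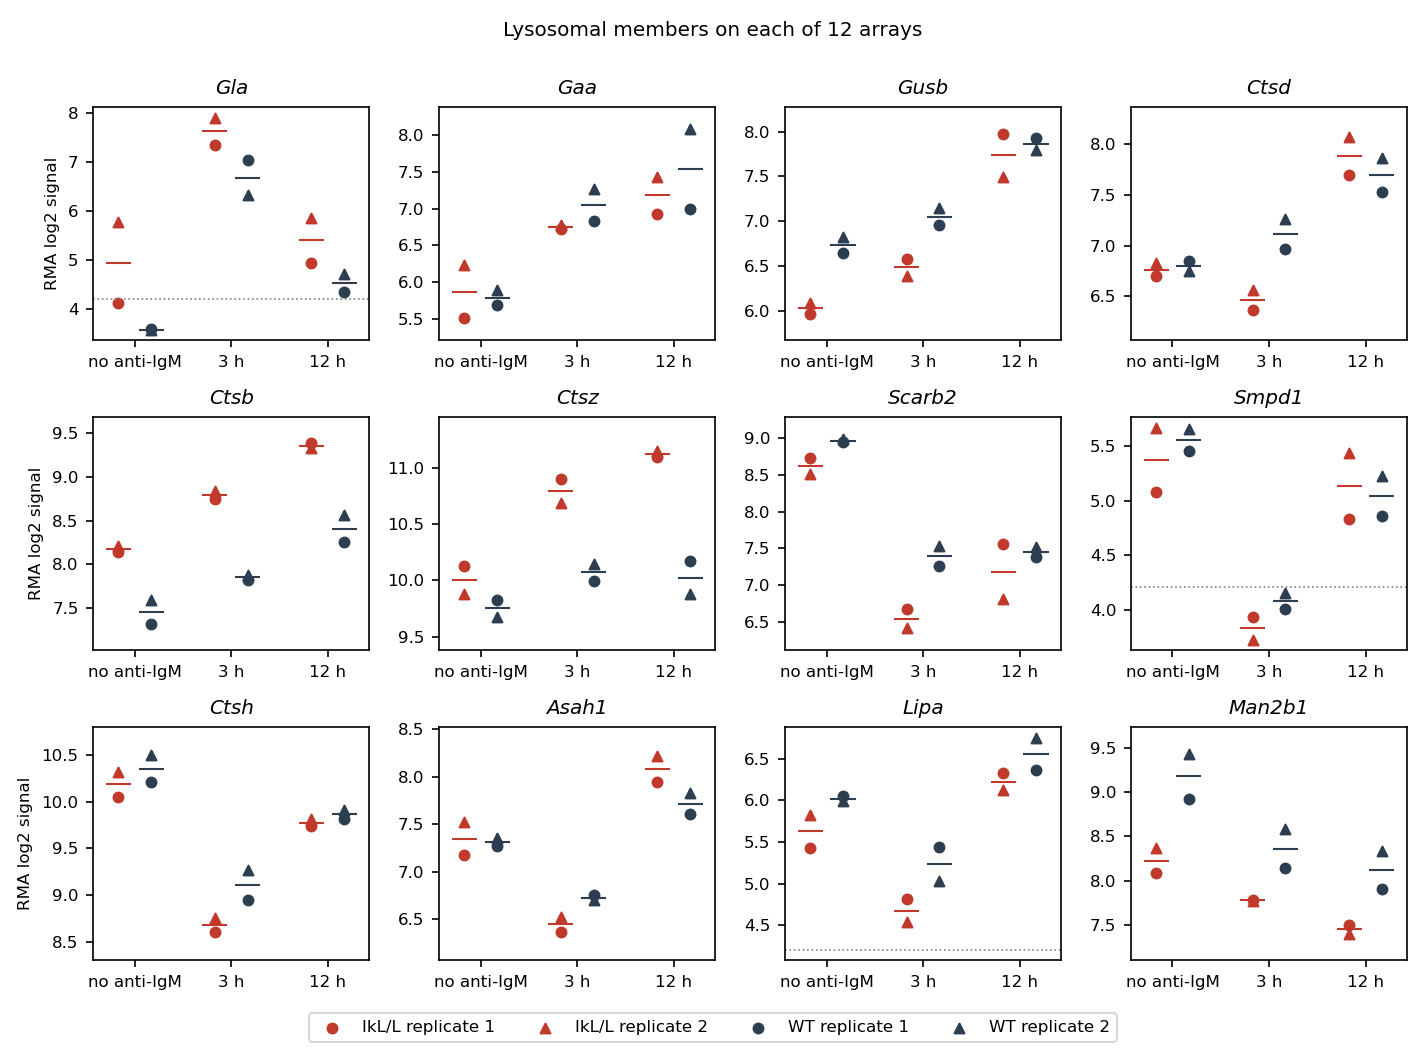
RMA log2 signal (vertical axis) of 12 members on every array, with IkL/L in red left of WT in dark blue at each condition, circles for replicate 1, triangles for replicate 2, bars for the mean of 2 and a dotted line at the floor of 4.21 where it is in range. Gla peaks at 3 h in both genotypes, Ctsh, Asah1, Lipa and Smpd1 dip at 3 h, and the IkL/L points of Ctsb lie above the WT points at every condition.

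The lipid hydrolases shared 1 time course in both genotypes, a dip at 3 h and a higher level at 12 h. Asah1, acid ceramidase, read 7.17 and 7.52 in unstimulated IkL/L cells, 6.37 and 6.53 at 3 h and 7.94 and 8.22 at 12 h, against 7.27 and 7.36, 6.75 and 6.70, and 7.61 and 7.83 in WT cells. It fell by 0.90 at 3 h in IkL/L cells (SE 0.15, 1.86-fold, limma adjusted p = 0.00193) and by 0.59 in WT cells (SE 0.15, 1.5-fold, limma adjusted p = 0.0205). Against 3 h it rose at 12 h by 1.63 in IkL/L cells (3.1-fold, limma adjusted p = 0.000119) and by 0.99 in WT cells (1.99-fold, limma adjusted p = 0.00277). The groups did not overlap at any step, and in IkL/L cells the 12 h level was also called above the unstimulated one, by 0.74 (limma adjusted p = 0.00757), which was lost without IkL/L unstimulated replicate 1 (adjusted p = 0.0576) or 12 h replicate 2 (adjusted p = 0.0748). The WT fall at 3 h was lost without any 1 of the 4 arrays compared (adjusted p between 0.0695 and 0.122).

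Lipa, lysosomal acid lipase, which frees cholesterol from its esters in the lysosome, followed the same course. It read 5.43 and 5.82 in unstimulated IkL/L cells, 4.81 and 4.54 at 3 h and 6.33 and 6.12 at 12 h, against 6.05 and 5.99, 5.44 and 5.03, and 6.37 and 6.75 in WT cells. Lipa fell by 0.95 at 3 h in IkL/L cells (SE 0.20, 1.94-fold, limma adjusted p = 0.00614) and by 0.78 in WT cells (SE 0.20, 1.72-fold, limma adjusted p = 0.0179). The rise from there to 12 h was 1.55 in IkL/L cells (2.93-fold, limma adjusted p = 0.000644) and 1.32 in WT cells (2.5-fold, limma adjusted p = 0.00234). Its 3 h fall was lost in IkL/L cells without 3 h replicate 2 (adjusted p = 0.06), and in WT cells without either unstimulated array (adjusted p = 0.0958 and 0.0747) or 3 h replicate 2 (adjusted p = 0.142).

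Smpd1, acid sphingomyelinase, which makes the ceramide that acid ceramidase breaks down, dropped under the floor at 3 h. It read 5.08 and 5.67 in unstimulated IkL/L cells, 3.94 and 3.72 at 3 h and 4.83 and 5.43 at 12 h, against 5.46 and 5.66, 4.01 and 4.16, and 4.86 and 5.22 in WT cells. The fall at 3 h was 1.55 log2 units in IkL/L cells by the fit (at least 2.25-fold, limma adjusted p = 0.00107) and 1.47 in WT cells (at least 2.55-fold, limma adjusted p = 0.00149). At 12 h it was at least 1.9-fold higher than at 3 h in IkL/L cells (limma adjusted p = 0.00465) and at least 1.78-fold higher in WT cells (limma adjusted p = 0.0288), since all 4 of the 3 h arrays lay under the floor. The WT call was lost without either WT 3 h array (adjusted p = 0.152 and 0.0854) or WT 12 h replicate 2 (adjusted p = 0.18). Psap, prosaposin, the precursor of the saposins that present lipids to these enzymes, stayed between 8.66 and 9.71 and was called in no comparison.

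Scarb2 was the membrane protein that fell most. Scarb2, also called LIMP-2, carries beta-glucocerebrosidase to the lysosome, and it read 8.72 and 8.51 in unstimulated IkL/L cells, 6.67 and 6.41 at 3 h and 7.56 and 6.81 at 12 h, against 8.94 and 8.98, 7.27 and 7.54, and 7.39 and 7.52 in WT cells. All 4 unstimulated arrays lay above all 8 stimulated ones. It fell by 2.07 at 3 h in IkL/L cells (SE 0.22, 4.2-fold, limma adjusted p = 0.000116) and by 1.56 in WT cells (SE 0.22, 2.95-fold, limma adjusted p = 0.000592). At 12 h it was lower by 1.43 in IkL/L cells (2.7-fold, limma adjusted p = 0.00134) and by 1.51 in WT cells (2.85-fold, limma adjusted p = 0.000851). Its second probe set showed the 3 h fall (-1.83 in IkL/L cells and -1.03 in WT cells) but not the 12 h one (-0.16 and -0.13).

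Lamp2, a main glycoprotein of the lysosomal membrane, rose at 12 h by 0.93 in IkL/L cells (SE 0.15, 1.9-fold, limma adjusted p = 0.00168), where it read 8.95 and 9.23 unstimulated, 9.32 and 9.32 at 3 h and 9.86 and 10.17 at 12 h. In WT cells it read 9.0 and 9.12, 9.20 and 9.37, and 9.60 and 9.46, and the rise of 0.47 at 12 h (limma adjusted p = 0.0492) was lost when any 1 of 8 arrays, those of unstimulated WT, 3 h WT, 12 h WT or 3 h IkL/L cells, was left out (adjusted p between 0.06 and 0.237). Lamp1, its close relative, stayed between 9.94 and 10.52 and was called in no comparison.

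Npc2 and Npc1 pass cholesterol out of the lysosome, and Npc2, the soluble one, followed the course of the lipid hydrolases. It read 9.76 and 10.00 in unstimulated IkL/L cells, 9.18 and 9.17 at 3 h and 10.26 and 10.33 at 12 h, against 9.76 and 9.95, 9.41 and 9.57, and 10.15 and 10.52 in WT cells. It fell by 0.70 at 3 h in IkL/L cells (SE 0.15, limma adjusted p = 0.00695), a call lost without IkL/L unstimulated replicate 2 (adjusted p = 0.0504), while the WT difference of -0.36 was not called (limma adjusted p = 0.139). From 3 h to 12 h the rise was 1.12 in IkL/L cells (2.17-fold, limma adjusted p = 0.000801) and 0.84 in WT cells (1.79-fold, limma adjusted p = 0.00558). Npc1, the membrane-bound one, read 3.68 to 4.95 with 4 arrays under the floor, and Mcoln1, the calcium channel TRPML1, read 6.49 to 7.13. Neither was called in any comparison.

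None of the 10 measured V-ATPase genes was called lower against unstimulated cells, although some means were lower, such as that of Atp6ap1 at 3 h. The shares called lower among genes over the floor were 21.0% in IkL/L cells and 20.6% in WT cells at 3 h. At 12 h they were 16.1% and 17.6%. Atp6v1h and Atp6v1c1, which encode V1 subunits H and C that act in the assembly and regulation of the pump, rose at both times in both genotypes. Atp6v1h read 8.14 and 8.44 in unstimulated IkL/L cells, 9.10 and 9.14 at 3 h and 9.13 and 9.12 at 12 h, against 7.95 and 7.82, 8.90 and 8.78, and 8.76 and 8.50 in WT cells. The rise at 3 h was 0.83 in IkL/L cells (SE 0.14, 1.78-fold, limma adjusted p = 0.00157) and 0.96 in WT cells (SE 0.14, 1.94-fold, limma adjusted p = 0.000695). At 12 h it was 0.84 in IkL/L cells (limma adjusted p = 0.002) and 0.75 in WT cells (limma adjusted p = 0.00327), but its second probe set, at a mean of 5.44, gave -0.09 and 0.45 at that time.

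Atp6v1c1 rose by 0.46 at 3 h and 0.81 at 12 h in IkL/L cells (limma adjusted p = 0.0346 and 0.00218) and by 0.57 and 0.60 in WT cells (limma adjusted p = 0.0121 and 0.0101). The 3 h call in IkL/L cells was lost without any 1 of the 4 arrays compared or without either WT unstimulated array (adjusted p between 0.0537 and 0.175). In WT cells the 3 h call was lost without either unstimulated array (adjusted p = 0.0744 and 0.0557) or 3 h replicate 2 (adjusted p = 0.0963), and the 12 h call without either unstimulated array (adjusted p = 0.0659 and 0.0506). Atp6v1a, the catalytic subunit, rose at 12 h in IkL/L cells by 0.76 (limma adjusted p = 0.0237), which was lost without unstimulated replicate 1 (adjusted p = 0.159) or either 12 h array (adjusted p = 0.0795 and 0.117). Atp6v1b2, the B subunit, rose at 12 h in IkL/L cells by 0.43 (limma adjusted p = 0.0393) and lost that call in the absence of any 1 of 8 arrays, the 4 WT arrays of unstimulated and 3 h cells, the 2 IkL/L 3 h arrays, IkL/L unstimulated replicate 1 and IkL/L 12 h replicate 2 (adjusted p between 0.0552 and 0.283).

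In the V0 sector 1 rise was called, that of Atp6v0b at 3 h in WT cells. Atp6v0b, a proteolipid of the rotor ring, read 9.65 and 9.87 at 3 h against 8.92 and 9.38 unstimulated in IkL/L cells, and 9.59 and 9.90 against 8.73 and 8.74 in WT cells. The WT rise was 1.01 (SE 0.22, 2.01-fold, limma adjusted p = 0.0081), lost without WT 3 h replicate 2 (adjusted p = 0.0674), and the IkL/L difference of 0.61 was not called (limma adjusted p = 0.0822). Atp6v0d1, the d subunit that links the ring to the stalk, differed at 3 h by 0.73 in IkL/L cells and by 0.76 in WT cells, neither called (limma adjusted p = 0.0661 and 0.0599). In IkL/L cells it fell by 0.96 between 3 h and 12 h (limma adjusted p = 0.0254), a call lost without any 1 of the 4 arrays compared (adjusted p between 0.0744 and 0.136). Atp6v0e, Atp6ap1, Atp6v1d and Atp6v1e1 were called in no comparison.

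Of the 2 transcription factors, Tfeb lay near the floor and fell at 3 h, and Tfe3 was not called. Tfeb read 4.76 and 4.77 in unstimulated IkL/L cells, 4.27 and 4.10 at 3 h and 4.66 and 4.47 at 12 h, against 4.97 and 5.10, 4.11 and 4.36, and 4.54 and 5.02 in WT cells. It fell by 0.58 at 3 h in IkL/L cells (SE 0.17, at least 1.44-fold, limma adjusted p = 0.0318) and by 0.80 in WT cells (SE 0.17, at least 1.68-fold, limma adjusted p = 0.00658), with 1 array of each 3 h group under the floor. The IkL/L call was lost without any 1 of the 4 arrays compared (adjusted p between 0.0658 and 0.187), and the WT call without WT unstimulated replicate 2 (adjusted p = 0.0557) or 3 h replicate 1 (adjusted p = 0.0612). Tfe3 read 5.55 and 6.37 in unstimulated IkL/L cells, 5.82 and 6.04 at 3 h and 5.82 and 6.16 at 12 h, against 5.49 and 5.81, 5.80 and 6.35, and 6.14 and 6.39 in WT cells. It was called in no comparison, and the mRNA level says nothing of where either protein was in the cell.

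The promoters of the lysosomal genes were searched for the E-box that this factor family binds. RefSeq windows on build GRCm38.p6, from 250 bases before to 50 after a start site, matched 33 of the 40 listed genes by symbol. The 6 letters CACGTG, a palindrome and so read alike on both strands, were found in 12 of the 33 genes (36.4%), against 10.2% of the 14452 array genes with a window. With a flanking T or A (TCACGTG or CACGTGA) the counts were 11 of 33 (33.3%) against 5.8%, and with both (TCACGTGA) 7 of 33 (21.2%) against 1.63%. Each longer form contains the shorter ones. The CLEAR consensus of 10 letters, both strands searched, was found for 0 of the 33 genes and for 0.574% of array genes. A gene can have several windows, and median GC content was 57.7% over the 40 windows of the lysosomal genes and 58.3% over the 18109 windows of array genes. The stretches around some of the matches are given because they hold the letters these genes share. Matches of Lamp1, Glb1, Ctsl and Atp6v0e and further ones of Ctsa, Ctsd, Mcoln1 and Atp6v0b are not printed. Capitals mark the E-box form found, and each sequence runs 5′ to 3′ along the gene's own strand. The motif start is the C of CACGTG, also where a capital T precedes it. It is counted in bases from the annotated start site, negative upstream.
Gla, chrX:134601212-134601247, minus strand, motif start at -227: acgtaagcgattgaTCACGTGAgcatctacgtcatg
Gla, chrX:134601179-134601214, minus strand, motif start at -194: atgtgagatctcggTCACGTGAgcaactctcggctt
Ctsd, chr7:142387905-142387940, minus strand, motif start at -98: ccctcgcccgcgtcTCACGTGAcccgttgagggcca
Ctsa, chr2:164833746-164833781, plus strand, motif start at -12: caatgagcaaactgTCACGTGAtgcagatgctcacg
Mcoln1, chr8:3500459-3500494, plus strand, motif start at -45: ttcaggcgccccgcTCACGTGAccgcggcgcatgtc
Atp6v1a, chr16:44139370-44139405, minus strand, motif start at -131: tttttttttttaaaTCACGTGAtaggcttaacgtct
Atp6v0d1, chr8:105566047-105566082, minus strand, motif start at -3: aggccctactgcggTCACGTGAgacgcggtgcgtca
Gaa, chr11:119267808-119267843, plus strand, motif start at -140: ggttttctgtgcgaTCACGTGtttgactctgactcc
Atp6v0b, chr4:117887345-117887380, minus strand, motif start at -36: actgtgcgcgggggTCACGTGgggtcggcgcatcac

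**Figure D3:**
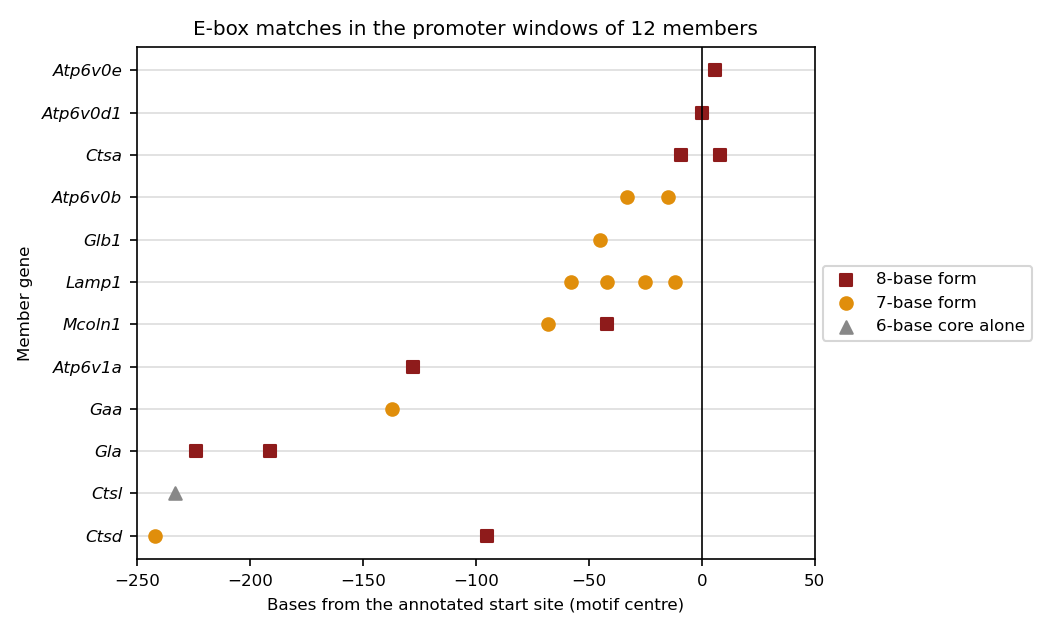
Position of each E-box match (horizontal axis, bases from the annotated start site to the motif centre) in the 12 members whose window holds one (vertical axis), with squares for the 8-base form, circles for the 7-base form and a triangle for the 6-base core alone. Matches of Ctsa, Atp6v0d1 and Atp6v0e lie at the start site, and both of Gla lie in the upstream part of the window.

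Genes with and without the 7-base E-box are set side by side as a description only, where rose and fell mean called. Among genes over the floor, 21.3% rose and 21.0% fell at 3 h in IkL/L cells and 20.4% and 20.6% in WT cells. At 12 h the shares were 20.4% and 16.1% in IkL/L cells and 21.9% and 17.6% in WT cells. For 12 h against 3 h they were 18.0% and 13.6%, and 13.4% and 9.58%. Calls were not counted over array genes with and without the E-box, so its part was not tested. Of the 11 with it, 1 rose (Gla) and 0 fell at 3 h in IkL/L cells, and 3 rose (Atp6v0b, Gaa and Gla) and 0 fell in WT cells. Of the 20 measured genes whose window lacks it, 1 rose and 6 fell at 3 h in IkL/L cells, and 2 rose and 6 fell in WT cells. Scarb2, Smpd1, Lipa, Ctss and Tfeb fell in both genotypes and are among those 20. At 12 h, 4 of the 11 rose in IkL/L cells (Atp6v1a, Ctsa, Ctsd and Gaa) and 2 rose in WT cells (Ctsd and Gaa), and 0 fell in either. Of the 20 without it, 5 rose and 2 fell at 12 h in IkL/L cells and 4 rose and 4 fell in WT cells. Between 3 h and 12 h in IkL/L cells, 3 genes with the E-box rose and 2 fell (Atp6v0d1 and Gla), and 7 of those without it rose and 0 fell. In WT cells 0 with it rose and 1 fell (Gla), and 5 without it rose and 0 fell. Windows of Asah1, Ctsb, Ctsh, Npc1, Atp6v1b2, Atp6v1c1 and Atp6v1h were not used here.

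The second comparison set IkL/L cells against WT cells at each condition. Unstimulated cells gave 1 member higher in IkL/L cells and 0 lower, where 0.594% of all genes were higher and 0.533% lower. At 3 h, 2 were higher and 2 lower, where 0.835% and 0.868% of all genes were called. At 12 h, 2 were higher and 0 lower, where 0.451% and 0.165% of all genes were called. All of the genes called were proteases. With arrays scaled on housekeeping genes none of the 7 calls remained, at adjusted p = 0.44 for Ctsb in unstimulated cells, 0.054, 0.117, 0.1 and 0.133 for Ctsa, Ctsb, Ctsz and Tpp1 at 3 h and 0.292 and 0.055 for Ctsb and Ctsz at 12 h.

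Ctsb was higher in IkL/L cells at all 3 conditions, by 0.72 unstimulated, 0.94 at 3 h and 0.95 at 12 h (SE 0.14 each, limma adjusted p = 0.0433, 0.0114 and 0.0182). The second brightest Ctsb probe set gave 0.57, 1.16 and 1.54 for the same 3 differences. The unstimulated call was lost without any 1 of 10 arrays, all but the 2 of WT cells at 12 h (adjusted p between 0.0655 and 0.246). The 3 h call was lost without either WT 3 h array (adjusted p = 0.0611 and 0.0891) or IkL/L 3 h replicate 2 (adjusted p = 0.118), and the 12 h call without WT 12 h replicate 1 (adjusted p = 0.0601) or either IkL/L 12 h array (adjusted p = 0.0584 and 0.129).

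Ctsz was higher in IkL/L cells by 0.73 at 3 h (limma adjusted p = 0.04) and by 1.10 at 12 h (2.15-fold, limma adjusted p = 0.013), with 0.25 in unstimulated cells, not called. Its 2 further probe sets gave 0.74 and 0.82 at 3 h and 1.15 and 1.00 at 12 h. The 12 h call was lost without replicate 2 of either group (adjusted p = 0.099 for the WT array and 0.111 for the IkL/L array). The 3 h call was lost when any 1 of 8 arrays was left out, those of 3 h WT, 3 h IkL/L, unstimulated WT or 12 h IkL/L cells (adjusted p between 0.0561 and 0.184). Ctsb and Ctsz are also highly expressed in macrophages. The summed macrophage markers, 6 of 9 at background throughout, read 7.95 and 7.89 in IkL/L cells at 3 h against 7.99 and 6.89 in WT cells, and 9.23 and 9.17 at 12 h against 8.43 and 7.58. Summed dendritic cell markers, 3 of 5 at background throughout, read 6.43 and 6.84 in unstimulated IkL/L cells against 5.80 and 6.14 in WT cells, 7.29 and 7.61 at 3 h against 6.51 and 6.26, and 6.22 and 6.51 at 12 h against 6.09 and 5.97. The part of either list in the difference was not tested.

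Ctsa, cathepsin A, which protects beta-galactosidase and sialidase, was lower in IkL/L cells at 3 h. It read 8.09 and 8.17 in unstimulated IkL/L cells, 7.81 and 7.82 at 3 h and 8.78 and 8.56 at 12 h, against 8.58 and 8.84, 8.73 and 9.11, and 8.68 and 8.86 in WT cells. At 3 h the difference was -1.11 (SE 0.15, 2.15-fold, limma adjusted p = 0.00971), lost without replicate 2 of WT (adjusted p = 0.0899) or IkL/L (adjusted p = 0.0949) cells at 3 h. In IkL/L cells Ctsa then rose by 0.85 from 3 h to 12 h (1.8-fold, limma adjusted p = 0.00458), where the 12 h arrays of the genotypes overlapped.

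Tpp1 was also lower in IkL/L cells at 3 h. It read 8.70 and 8.60 in unstimulated IkL/L cells, 8.58 and 8.50 at 3 h and 9.11 and 9.17 at 12 h, against 8.52 and 8.62, 9.36 and 9.19, and 9.02 and 9.24 in WT cells. The 3 h difference was -0.74 (SE 0.12, 1.66-fold, limma adjusted p = 0.0184), lost without any 1 of the 4 arrays compared (adjusted p between 0.0611 and 0.161). The genotypes overlapped before stimulation and again at 12 h.

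At 3 h, 28 of the 38 members had a difference below 0 between IkL/L and WT cells, with a median of -0.25, against 54.3% below 0 and a median of -0.02 over all genes. At an unadjusted p under 0.05 the counts at 3 h were 2 higher and 12 lower, where 6.01% and 6.71% of all genes passed that level. These genes share the same 4 arrays and are not independent. The medians in unstimulated cells and at 12 h were 0.03 and 0.04, and both changed sign to -0.05 and -0.12 when arrays were scaled on 8 housekeeping genes, a scaling that moved all genes by 0.16 at 12 h.

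Whether stimulation acted differently in the 2 genotypes was tested as the IkL/L response minus the WT response. By limma 0 of 38 members were called higher and 0 lower at 3 h, where 0.0275% and 0.011% of all genes were called, and 0 and 0 at 12 h, where 0.022% and 0.0% were. At an unadjusted p under 0.05, 1 member was higher and 6 lower at 3 h, where 2.22% and 3.42% of all genes passed, and 2 were higher and 0 lower at 12 h, where 3.11% and 3.08% did. The lowest adjusted p was 0.295 for Tpp1 at 3 h, with a difference of -0.82 (SE 0.17), and 0.447 for Ctsz at 12 h. The responses of 10 members were called the same way in both genotypes at 3 h and of 11 at 12 h, and 0 were called in opposite directions. The same counts were not made over all genes, so these do not set the members apart from other genes. The other calls, made in 1 genotype alone, are neither shown to differ between the genotypes nor shown to be alike.

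**Figure D4:**
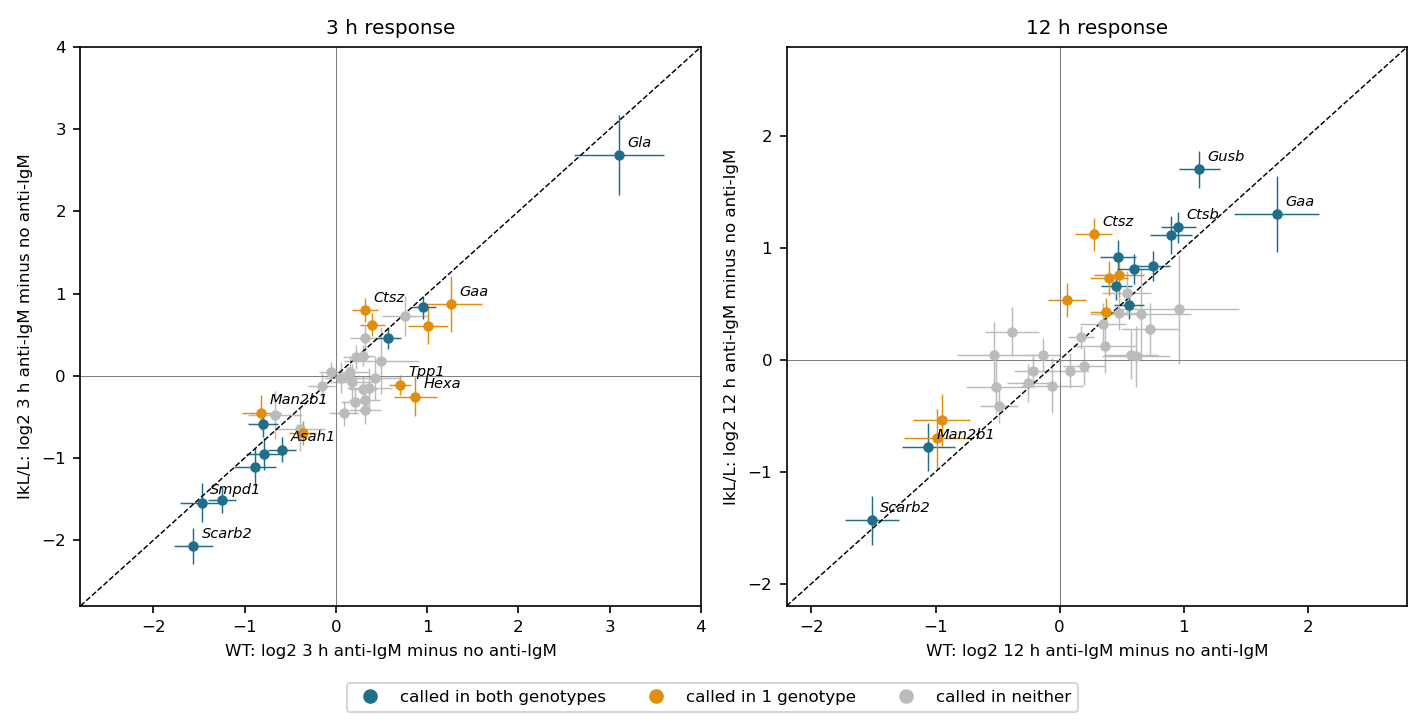
Log2 response to anti-IgM in IkL/L cells (vertical axis) against WT cells (horizontal axis) at 3 h (left) and 12 h (right), 1 point per member with bars of 1 standard error from the limma fit and a dashed line of equal response. Blue points were called in both genotypes, orange in 1 and grey in neither. Gla and Scarb2 lie at opposite ends at 3 h, and Hexa and Tpp1 lie below the line on its WT side.

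Other lysosomal hydrolases, which are not in the described set, had more falls than rises. The counts of this and the next lists stand beside shares among genes over the floor of 21.3% higher and 21.0% lower at 3 h in IkL/L cells, 20.4% and 20.6% at 3 h in WT cells, 20.4% and 16.1% at 12 h in IkL/L cells and 21.9% and 17.6% at 12 h in WT cells. Of 30 measured, 1 rose and 14 fell at 3 h in IkL/L cells and 1 rose and 13 fell in WT cells, and 2 rose and 10 fell at 12 h in IkL/L cells and 3 rose and 10 fell in WT cells. The shares that fell were 46.7% and 43.3% at 3 h and 33.3% in each genotype at 12 h. Acp5, tartrate-resistant acid phosphatase, fell by 2.40 at 3 h in IkL/L cells and by 2.89 in WT cells (limma adjusted p = 1.2e-05 and 7.17e-06). Ifi30, the thiol reductase GILT that opens disulfide bonds of antigens, fell by 2.28 at 12 h in IkL/L cells and by 3.09 in WT cells (limma adjusted p = 0.000121 and 1.84e-05). The IkL/L minus WT difference was -1.07 for Acp5 unstimulated and -1.69 for Ctse at 3 h (limma adjusted p = 0.0176 and 0.0342). For Ifi30 it was 1.28 at 3 h and 1.40 at 12 h (limma adjusted p = 0.0254 and 0.0297). In that order, these genotype calls were kept under 17, 14, 16 and 17 of 26 alternatives.

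Of 16 sorting genes, 4 rose and 2 fell at 3 h in IkL/L cells (25.0% and 12.5%) and 5 rose and 2 fell in WT cells (31.2% and 12.5%). Igf2r, the large mannose-6-phosphate receptor that delivers hydrolases, rose at 3 h by 3.31 in IkL/L cells and by 2.78 in WT cells (limma adjusted p = 1.12e-05 and 2.97e-05), and at 12 h fell by 2.66 in IkL/L cells and fell by 2.52 in WT cells against 3 h. Gga2, an adaptor for that receptor, fell by 1.65 at 3 h in IkL/L cells and by 1.51 in WT cells (limma adjusted p = 1.77e-05 and 3.18e-05). Its IkL/L minus WT difference at 3 h was -0.63 (limma adjusted p = 0.0356), a call kept under 12 of 26 alternatives.

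Of 19 other V-ATPase subunits and assembly factors, 5 rose and 2 fell at 3 h in IkL/L cells (26.3% and 10.5%) and 5 rose and 1 fell in WT cells (26.3% and 5.26%). Ccdc115, an assembly factor of the pump, rose at 3 h by 1.56 in IkL/L cells and by 1.49 in WT cells (limma adjusted p = 5.39e-05 and 7.21e-05). Tcirg1, the a3 subunit known from osteoclasts, fell by 1.52 at 3 h in IkL/L cells and by 1.17 in WT cells (limma adjusted p = 0.000151 and 0.000695). Of 19 relatives and regulators of Tfeb, 2 rose and 3 fell at 3 h in IkL/L cells (10.5% and 15.8%) and 4 rose and 2 fell in WT cells (21.1% and 10.5%). Rragd, a Rag GTPase that recruits TFEB to the lysosome, rose at 3 h by 1.99 in IkL/L cells and by 2.85 in WT cells (limma adjusted p = 0.000137 and 2.1e-05), although its second brightest probe set gave -0.02 in WT cells.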

How the data were processed

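The values are log2 signals that the authors deposited as 1 processed table for 12 mouse expression arrays; they were summarised with RMA, per the submitters' processing notes, and scanner files were not used here. Total RNA (100 ng) was labelled in 2 cycles, per the labels' protocols. No count or depth exists for arrays, so 2 arrays a group limit the precision. The p-values use the spread between the 2 arrays of a group, pooled over the 6 groups and drawn toward that of other genes. In WT cells that spread also holds the Xist difference between replicates, which IkL/L cells lack. The table held 45037 probe sets, of which 34945 had 1 gene symbol, 932 several and 9160 were not listed in the platform annotation. For each of 18193 genes the probe set with the highest mean was kept. Group means were fitted to all 12 arrays with limma 3.58.1 (R 4.3.3, empirical Bayes, Benjamini-Hochberg over all genes). The fit was tested on simulated data with 200 changed genes of higher signal and arrays drawn independently. It recovered 50% of the changes of 1 log2 unit and 93% of those of 2, and called 12 unchanged genes.

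Same-numbered arrays deviated together within a genotype (r between 0.354 and 0.619 over 6064 genes) and less across genotypes (0.026 to 0.31), so the replicate number was also used as a block within genotype. That block was a random term (correlation 0.166) for IkL/L against WT at each condition and a fixed term for the other comparisons. The 38 measured members were counted in every comparison. Array values and full statistics were given for Tfeb, Tfe3 and, in each comparison, the called members with the 8 largest differences, and up to 3 called genes were named per further list. The members and lists were chosen with earlier results of these data known. Alternatives were median centring, scaling on 8 housekeeping genes, the second brightest probe set or the mean of all, dropping the dimmest genes, fits with array weights or with an intensity trend, a fit of the compared arrays alone, replicate blocks and leaving out arrays.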

Additional observations from a re-analysis of the deposited data

Results flagged for a closer look

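For 5 members the 3 h arrays did not overlap with the unstimulated ones in either genotype and lay below them in IkL/L cells and above them in WT cells, though limma did not call any of these differences between genotypes. With 2 arrays a group such gaps were common among the members. At 3 h 29 of 38 members did not overlap in IkL/L cells, 13 of them called, and 30 of 38 in WT cells, 15 of them called. Overlap was not counted over all genes, so these numbers do not set the members apart from other genes. The 5 were picked for their opposite signs, and how many of all genes did the same was not counted. The responses of Tpp1 were -0.11 in IkL/L cells and 0.70 in WT cells, a difference of -0.82 (SE 0.17, limma adjusted p = 0.295). Hexa responded by -0.26 in IkL/L cells and by 0.87 in WT cells, a difference of -1.12 (SE 0.33, limma adjusted p = 0.664). For Mcoln1 the responses were -0.41 in IkL/L cells and 0.32 in WT cells, a difference of -0.73 (SE 0.24, limma adjusted p = 0.758). Ctsd gave -0.30 in IkL/L cells and 0.32 in WT cells, a difference of -0.62 (SE 0.24, limma adjusted p = 0.806). Lamp1 gave -0.16 in IkL/L cells and 0.30 in WT cells, a difference of -0.46 (SE 0.22, limma adjusted p = 0.903). None of these 5 passed the test, which with 2 arrays a group does not show that the responses were alike.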

How the results depend on the processing

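Limits. The 2 arrays a group set the precision, and of 88 called member differences 12 were called under all 26 alternatives, 39 in all 12 fits that left out 1 array and 23 in all 4 that left out a replicate in every condition. All 88 were called with the replicate block within genotype, which was a random block for IkL/L against WT. The 12 were the 3 h falls of Ctsh and Scarb2 in both genotypes and of Asah1 in IkL/L cells, the 12 h rises of Ctsb in both genotypes and Ctsz in IkL/L cells, and the rises of Asah1, Ctsd, Ctsh and Npc2 from 3 h to 12 h in IkL/L cells. Asah1 and Ctsd have 1 probe set, so the second brightest probe set and the mean of all left their values unchanged. Scaling on housekeeping genes moved all genes by -0.23 at 12 h in IkL/L cells and by -0.15 in WT cells. The cause of a lost call was not tested.

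With 1 replicate or array left out, the count of called members ranged over 6 to 16 for IkL/L cells at 3 h, 6 to 16 at 12 h and 8 to 16 for 12 h against 3 h. In WT cells the ranges were 7 to 16 at 3 h, 5 to 15 at 12 h and 1 to 10 for 12 h against 3 h. Between genotypes they were 0 to 2 unstimulated, 0 to 5 at 3 h and 0 to 2 at 12 h. Housekeeping scaling gave 8 called members in IkL/L cells at 12 h, 8 for 12 h against 3 h, 9 in WT cells at 3 h, 8 at 12 h, 2 for 12 h against 3 h, and 0 between genotypes at each condition. The second brightest probe sets gave 9 for IkL/L cells at 12 h, 5 for WT cells at 12 h against 3 h and 1 between genotypes at 3 h. Using only the arrays compared gave 5 for WT cells at 12 h against 3 h and 0, 1 and 0 between genotypes unstimulated, at 3 h and at 12 h. Between genotypes in unstimulated cells the intensity trend, array weights and median centring gave 0, and at 12 h the mean of all probe sets gave 1. The replicate block within genotype gave 23 members for WT cells at 12 h and 2 between genotypes in unstimulated cells, where a block shared by both genotypes also gave 2. Calls over all genes also moved with these settings, so the member counts alone do not show that members moved more than other genes.

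Some differences changed sign. With the second brightest probe set Ctsc was -0.022 at 12 h in WT cells and -0.078 for 12 h against 3 h in IkL/L cells, and at 12 h in IkL/L cells Atp6v1h was -0.093 and Tpp1 -0.107. The same setting gave Ids 0.046 in IkL/L and 0.007 in WT cells at 3 h, where the main fit gave -2.05 and -2.11. At 3 h Tpcn1 was 0.017 in IkL/L cells (main fit -1.03) and Ctse 0.059 between genotypes (main fit -1.69). In WT cells Lamtor2 was 0.20 at 3 h (main fit -1.235) and -0.13 for 12 h against 3 h (main fit 1.19). Rragd was -0.018 at 3 h and -0.10 at 12 h in WT cells (main fit 2.85 and 0.71). For 12 h against 3 h in IkL/L cells Rragd was 0.17 (main fit -1.73). The mean of all probe sets gave Ctsb -0.081 for 12 h against 3 h in IkL/L cells.

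Tfe3 was called nowhere. In IkL/L cells it gave 0.07 at 3 h with median centring and 0.028 with housekeeping scaling, -0.20 at 12 h with housekeeping scaling, and -0.058 and -0.228 for 12 h against 3 h under those 2 scalings. With arrays left out Tfe3 ranged over -0.44 to 0.38 at 3 h (0.271 without IkL/L replicate 2 in all conditions), -0.38 to 0.44 at 12 h (-0.212 without IkL/L replicate 1 in all conditions) and -0.10 to 0.23 for 12 h against 3 h in IkL/L cells, -0.082 to 0.46 for 12 h against 3 h in WT cells, and -0.10 to 0.72 unstimulated and -0.42 to 0.13 at 3 h between genotypes. Tfeb ranged over -0.175 to 0.076 at 3 h (0.036 without IkL/L replicate 2 in all conditions) and -0.455 to 0.021 at 12 h between genotypes, and its 12 h response difference over -0.19 to 0.29 (-0.124 when replicate 1 of every WT condition was dropped and -0.054 when that of every IkL/L condition was), with -0.033 under housekeeping scaling.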

Other observations

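Cystatins and serpins that block cathepsins, 6 measured, gave 1 higher and 2 lower at 3 h and 2 higher and 2 lower at 12 h in each genotype, that is 16.7% and 33.3% at 3 h and 33.3% each way at 12 h. Cst7, cystatin F, an inhibitor that acts inside lysosomes, rose at 12 h by 4.25 in IkL/L cells and by 1.9 in WT cells (limma adjusted p = 6.65e-05 and 0.00528). At 12 h Cst7 was higher in IkL/L than in WT cells by 2.54 (limma adjusted p = 0.0191), a call kept under 20 of 26 alternatives. It was lost without IkL/L 12 h replicate 2, which brought the difference to 2.03, and under further settings. Cst3, cystatin C, fell by 1.76 at 3 h in IkL/L cells and by 1.86 in WT cells (limma adjusted p = 9.7e-05 and 7.18e-05).

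Of 28 autophagy genes, 0 rose and 7 fell at 3 h in IkL/L cells and 0 rose and 6 fell in WT cells, and at 12 h 1 rose and 9 fell in each genotype. The shares that fell were 25.0% in IkL/L cells and 21.4% in WT cells at 3 h, against 21.0% and 20.6% of genes over the floor, and 32.1% in each at 12 h, against 16.1% and 17.6%. The one that rose, Gabarapl1, an ATG8 protein of the autophagosome membrane, was higher at 12 h by 2.14 in IkL/L cells and by 2.47 in WT cells (limma adjusted p = 0.00089 and 0.000326).

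Among 25 other lysosomal membrane proteins, 3 rose and 5 fell at 3 h in IkL/L cells and 3 rose and 3 fell in WT cells. At 12 h 1 rose and 4 fell in IkL/L cells and 0 rose and 5 fell in WT cells. The shares that fell, 20.0% and 12.0% at 3 h and 16.0% and 20.0% at 12 h in IkL/L and WT cells, stand against 21.0%, 20.6%, 16.1% and 17.6% of genes over the floor. Laptm4b, a transmembrane protein of late endosomes and lysosomes, was higher in IkL/L than in WT cells by 2.09 unstimulated, 1.62 at 3 h and 1.65 at 12 h (limma adjusted p = 0.00753, 0.0228 and 0.0336). Its unstimulated call was lost without replicate 2 of WT (adjusted p = 0.0954) or IkL/L (adjusted p = 0.0561) unstimulated cells, and its 3 h call without any 1 of the 4 arrays compared (adjusted p between 0.0639 and 0.203) or under housekeeping scaling (adjusted p = 0.0729). The 12 h call of Laptm4b was lost without any 1 of 9 arrays, the unstimulated ones of both genotypes, the 3 h and 12 h ones of IkL/L cells and WT 12 h replicate 1, the last of which brought the difference to 1.16 (adjusted p between 0.0549 and 0.231), and also under housekeeping scaling (adjusted p = 0.162) or with only the arrays compared (adjusted p = 0.317). Cd68, a glycoprotein of late endosomes that is abundant in macrophages, was higher in IkL/L than in WT cells by 1.20 at 3 h and by 1.41 at 12 h (limma adjusted p = 0.024 and 0.019). The 3 h call of Cd68 was lost without any 1 of the 4 arrays compared, with differences of 1.13 to 1.27. Its 12 h call was lost without either IkL/L 12 h array, with differences of 1.30 and 1.52. The 3 h call was kept under 18 of 26 alternatives and the 12 h call under 19.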
